A study of Homo sapiens with 6 samples.

Results

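The mRNA of 9 complement genes was followed in 786-O cells, an established human cell line from a clear cell renal cell carcinoma. They are C1R, C1S, C3, CFB and CFD, which encode components, and CFI, CD46, CD55 and CD59, which encode regulators. The 9 genes, of 20030 in the deposited table, were chosen by name, with their differences between shYB1 and vector cells already known. Their own differences are therefore given as a description and without a p-value. The comparison had 3 shYB1 libraries, from cells infected with lentivirus carrying a small hairpin RNA (shRNA) against YB1, and 3 vector libraries, from cells carrying a scrambled shRNA, and all cells were puromycin selected and at passages 16 to 18. The labels give 1 shYB1 group, whereas the design text of the series mentions several independent shRNAs, and nothing in the labels says whether replicates were separate cultures, so the spread between libraries may be technical. Values are FPKM, fragments scaled to transcript length and to the mapped fragments of a library, which let levels of different genes be compared per length.

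Complement is a system of plasma and membrane proteins that tags and lyses cells and microbes. Its classical pathway starts with the C1 complex, in which the protease C1r activates the protease C1s, which cleaves C4 and C2. Its alternative pathway runs through factor B and factor D. Both meet at C3, whose cleavage product C3b binds surfaces and builds further convertases, and host cells are protected by soluble regulators, such as factor I, and by the membrane proteins CD46, CD55 and CD59. Most plasma complement comes from the liver, but kidney epithelium and carcinoma cells also transcribe several of these genes.

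YBX1, the gene of YB1, measured 366.5, 372.8 and 377.9 FPKM under vector, against 166.7, 165.9 and 173.3 FPKM under shYB1, so the labels and the knockdown were in accord (log2 fold change −1.14, SE 0.031, adjusted p = 1.53e-08 by limma with Benjamini-Hochberg adjustment). The FPKM of a library summed to between 282736 and 295887, and the spacing of the lowest values gave depths of 0.986 to 1.10 times that of shYB1 replicate 1, while the absolute depth is unknown. Of 7 markers of renal carcinoma cells, 6 had a mean of at least 1 FPKM, and the exception was NDUFA4L2. The summed FPKM of 4 hepatocyte markers was 0 to 0.278 in the vector libraries and 0.0371 to 0.0922 in the shYB1 libraries, with TTR at 0 in all of them. The summed FPKM of 6 leukocyte markers was 2.01 to 2.32 in the vector libraries and 2.79 to 3.17 in the shYB1 libraries, with CD163 and CD3E at 0, and CSF1R, which made up most of it, rose from 1.75 ± 0.235 to 2.64 ± 0.102 FPKM (SD, n = 3 each; adjusted p = 0.00251 by limma). The summed FPKM of 3 endothelial markers, 0.240 to 0.406 over all libraries, and of 4 fibroblast markers, 0.360 to 0.683, stayed low. In bulk RNA, fewer cells that express a gene and less of its mRNA per cell cannot be told apart.

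Promoter sequence is shown for C1R, CFI and CFB, which were all lower in shYB1 cells without overlap, and for CD55, whose groups overlapped. RefSeq promoter windows (GRCh38.p14) were found for 7 of the 9 genes, namely C1R, CFB, CFD, CFI, CD46, CD55 and CD59. Each sequence holds the 250 bases before a RefSeq start, 5′ to 3′ on the gene's strand, with the letters of a searched motif in capitals. The CFB and CD55 windows lie inside the gene spans given below, and the C1R and CFI windows partly inside theirs. The RefSeq start was 386 bases for CFB, and 23 bases for CD55, from that of the transcript in the deposited annotation. For C1R and CFI no such transcript start was matched. Motif distances are counted from the RefSeq start. RefSeq lists 2 windows for C1R, 2 for CD46 and 4 for CD59. For CD46 and CD59 the window nearest to the annotated transcript start was searched, at 3 and 12 bases from it. For C1R the first listed window was searched and is the one shown.
C1R, chr12:7092446-7092695, minus strand: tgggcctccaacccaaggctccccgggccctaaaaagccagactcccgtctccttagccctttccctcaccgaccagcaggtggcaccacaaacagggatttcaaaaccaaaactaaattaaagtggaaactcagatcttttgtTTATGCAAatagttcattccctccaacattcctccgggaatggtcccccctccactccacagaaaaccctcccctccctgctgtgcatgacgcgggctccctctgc
CFI, chr4:109802000-109802249, minus strand: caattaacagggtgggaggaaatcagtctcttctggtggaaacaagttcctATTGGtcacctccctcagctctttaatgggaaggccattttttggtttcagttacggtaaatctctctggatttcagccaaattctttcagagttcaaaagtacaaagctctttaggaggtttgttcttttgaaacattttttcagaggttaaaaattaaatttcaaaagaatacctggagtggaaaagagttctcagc
CFB, chr6:31945845-31946094, plus strand: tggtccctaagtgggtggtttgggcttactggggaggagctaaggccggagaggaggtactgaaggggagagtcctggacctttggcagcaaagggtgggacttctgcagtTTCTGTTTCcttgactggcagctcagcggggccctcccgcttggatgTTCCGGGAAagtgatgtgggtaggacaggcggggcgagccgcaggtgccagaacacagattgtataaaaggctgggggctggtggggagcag
CD55, chr1:207321428-207321677, plus strand: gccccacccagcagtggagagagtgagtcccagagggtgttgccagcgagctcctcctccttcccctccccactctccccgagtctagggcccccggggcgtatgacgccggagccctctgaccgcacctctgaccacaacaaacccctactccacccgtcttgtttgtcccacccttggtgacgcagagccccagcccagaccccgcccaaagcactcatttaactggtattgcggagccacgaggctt
The motifs, searched on both strands, were the Y-box CTGATTGG, which contains the CCAAT core in reverse, the CCAAT core itself, a STAT-type TTCNNNGAA, a kappa B-type GGANTTTCC, a C/EBP-type TTGCNNAA and an IRF-type GAAANNGAA. The Y-box is the element for which YB1 was named. Its letters were in 3.81% of all 35116 windows of this length and in none of the 7 windows searched here. The C1R window held a C/EBP-type match at 106 bases before the start, and such matches were in 9.05% of all windows. The CFB window held a STAT-type match, present in 6.57% of all windows, at 92 bases before the start and an IRF-type match, present in 6.88%, at 139 bases. The CFI window held the CCAAT core, present in 32.0% of all windows, at 199 bases, and the CD55 and CFD windows held none of the motifs. Kappa B-type letters, present in 1.45% of all windows, were in none of the 7. In the CD46 window the CCAAT core was at 46 bases, and the CD59 window held it at 150 bases and a STAT-type match at 128 bases. A match in these letters is not evidence of binding.

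Among the 9 genes, most components and the soluble regulator CFI were lower in shYB1 cells. The membrane regulators CD46, CD55 and CD59 stayed close to their vector levels. Over the 10439 genes that averaged 1 FPKM or more, which included all 9, limma with a threshold on the adjusted p of 0.05 made 5 calls of a lower level (C3, C1R, C1S, CFB and CFI), against 6.93% of all genes tested. None was called higher, against 18.7% of all genes tested. All 9 log2 fold changes were below 0, but the 95% intervals of CFD, CD46 and CD55 included 0. The groups did not overlap in 6 of the 9, all lower, against 12.5% of all genes tested with lower and 30.1% with higher shYB1 values. Since the genes were chosen with this comparison known, nothing is read from these counts. The median log2 fold change was −0.83 over the 9 genes, −0.97 over the 5 components and −0.063 over the 4 regulators, against 0.055 over all genes tested. By the study's criteria of a fold change of 2 and an unadjusted p under 0.05, which 0.182% of all genes tested met as lower genes, C3, C1S and CFI were lower.

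**Figure D1:**
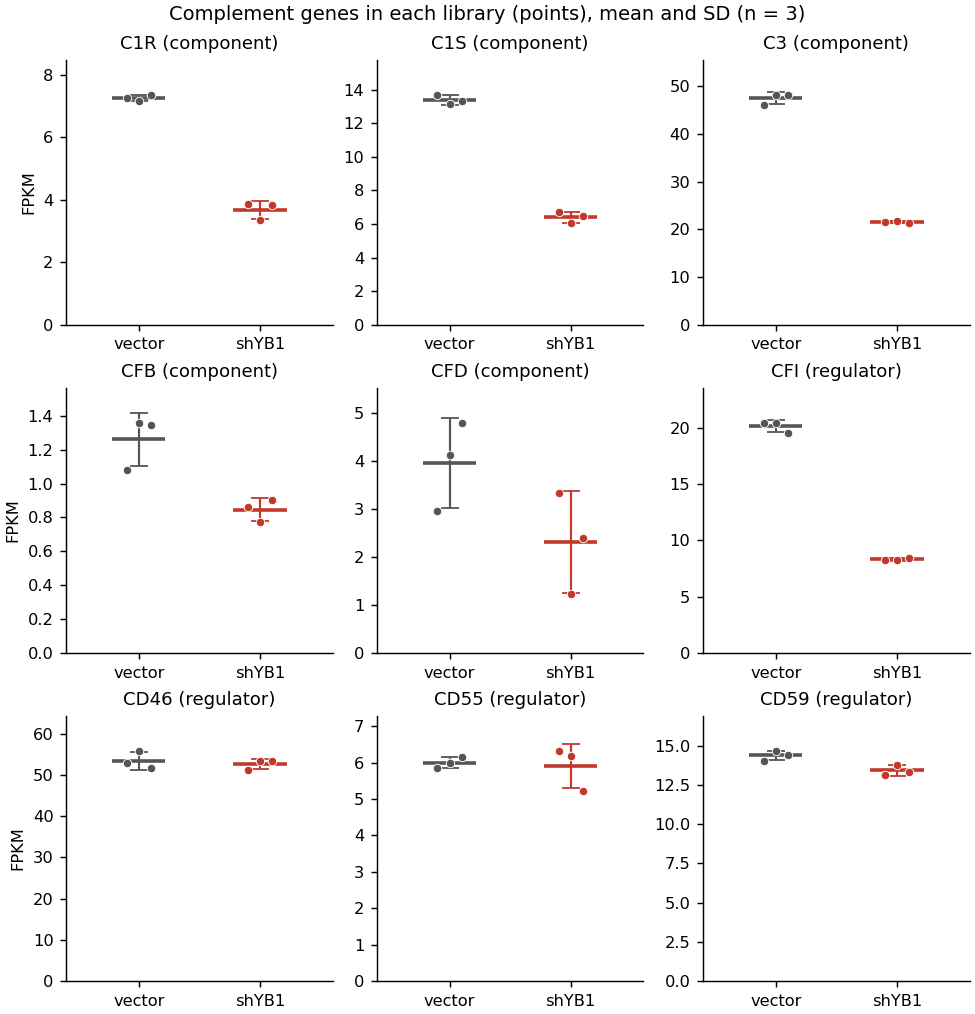
FPKM (vertical axes, from 0, scaled separately) of the 9 complement genes in 3 vector and 3 shYB1 libraries (points), with horizontal lines at the mean and error bars of 1 SD. C1R, C1S, C3 and CFI sit at 41.2% to 50.6% of the vector mean without overlap, while the component CFD and the regulators CD46 and CD55 overlap between the groups.

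C1R and C1S, the paired proteases of the C1 complex, were lower by about the same proportion. C1R, on chromosome 12 (GRCh38) from 7080199 to 7092607 on the minus strand, measured 7.25, 7.17 and 7.37 FPKM under vector, against 3.85, 3.35 and 3.82 FPKM under shYB1. C1S, also on chromosome 12, from 6988259 to 7071032 on the plus strand, measured 13.7, 13.1 and 13.4 FPKM under vector, against 6.71, 6.06 and 6.45 FPKM under shYB1. In both genes every shYB1 library lay below every vector library, with shYB1 replicate 2 the lowest. The shYB1 means were 50.6% and 47.8% of the vector means, and the log2 fold changes were −0.97 (SE 0.066) for C1R and −1.05 (SE 0.053) for C1S. The ratio of C1R to C1S within a library, which does not depend on how libraries are scaled, was 0.529, 0.545 and 0.552 under vector, against 0.574, 0.554 and 0.593 under shYB1. It moved little beside the size of the differences themselves, although the groups did not overlap. C1R shares 9.96% of its 50-base transcript words with other genes, nearly all with C1RL, which overlaps it on the same strand.

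C3, the component at which the pathways meet, was the most abundant of those called lower among the 9 genes. It lies on chromosome 19 from 6677704 to 6730562 on the minus strand. C3 measured 46.0, 48.1 and 48.3 FPKM under vector, against 21.6, 21.7 and 21.3 FPKM under shYB1. The group means were 47.4 ± 1.26 (SD, n = 3) and 21.5 ± 0.226 (SD, n = 3), so the gap between the groups was many times the spread within either. The log2 fold change was −1.14 (SE 0.036), and C3 had rank 13 from the lowest among the 10439 genes tested, close to YBX1 itself at rank 10.

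The alternative pathway genes were scarcer and less even. CFB, on chromosome 6 from 31945650 to 31952084 on the plus strand, encodes factor B, the protease of the alternative convertase. CFB measured 1.08, 1.36 and 1.34 FPKM under vector, against 0.863, 0.774 and 0.902 FPKM under shYB1. The groups did not overlap, with a log2 fold change of −0.52 (SE 0.12), a smaller difference than that of C3, and −0.29 with a pseudocount of 1. CFB passed the minimum of 1 FPKM through its vector values, and it shares 41.4% of its 50-base transcript words with an overlapping read-through gene of the same strand, so its level is uncertain.
CFD encodes factor D, which cleaves factor B, and lies on chromosome 19 from 859643 to 863630 on the plus strand. CFD measured 2.95, 4.12 and 4.80 FPKM under vector, against 3.33, 1.22 and 2.38 FPKM under shYB1. These ranges overlapped, since shYB1 replicate 1 lay above vector replicate 1. The coefficient of variation was 23.7% in vector and 45.7% in shYB1 cells, the widest of the 9 genes. Its log2 fold change was −0.83 (SE 0.39, 95% interval −1.81 to 0.16), and without shYB1 replicate 2 it was −0.45.

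CFI, the gene of factor I, which inactivates C3b and C4b, showed the largest difference of the 9. It lies on chromosome 4 from 109740694 to 109802179 on the minus strand. CFI measured 20.5, 20.4 and 19.5 FPKM under vector, against 8.29, 8.22 and 8.42 FPKM under shYB1. The shYB1 libraries were nearly identical to one another, at 41.2% of the vector mean. The log2 fold change was −1.27 (SE 0.043), rank 6 from the lowest among all genes tested. CFI shares 30.9% of its 50-base transcript words with other genes, nearly all with an overlapping gene of the same strand.

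The membrane regulators CD46, CD55 and CD59 differed far less between the groups than CFI. CD46, which acts as the cofactor with which factor I cleaves C3b and C4b, is on chromosome 1 from 207752057 to 207795513 on the plus strand. CD46 measured 52.9, 55.9 and 51.7 FPKM under vector, against 51.3, 53.4 and 53.4 FPKM under shYB1. The groups overlapped, and the log2 fold change was −0.020 (SE 0.039, 95% interval −0.11 to 0.066).
CD55, which speeds the decay of convertases, is nearby on chromosome 1 from 207321376 to 207386804 on the plus strand. CD55 measured 5.86, 6.0 and 6.14 FPKM under vector, against 6.33, 6.18 and 5.22 FPKM under shYB1. Replicate 3 of shYB1 was the lowest of all and replicate 1 the highest, with a log2 fold change of −0.027 (SE 0.075, 95% interval −0.19 to 0.14).
CD59, which blocks assembly of the membrane attack complex, is on chromosome 11 from 33703010 to 33736491 on the minus strand. CD59 measured 14.1, 14.7 and 14.4 FPKM under vector, against 13.1, 13.8 and 13.3 FPKM under shYB1. The groups did not overlap, but the shift was small, at 93.4% of the vector mean and a log2 fold change of −0.098 (SE 0.043, 95% interval −0.19 to −0.0019). Among all the alternatives, CD59 was called lower with median-of-ratios scaling (log2 fold change −0.15) and with quantile normalization (−0.16).

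The order of levels per length changed with these differences. In vector cells it ran CD46, C3, CFI, CD59, C1S, C1R, CD55, CFD and CFB, from 53.5 to 1.26 FPKM, and no neighbours overlapped between libraries. In shYB1 cells CD59 stood above CFI and CD55 above C1R, and C1S and CD55, at 6.41 and 5.91 FPKM, overlapped as neighbours. The ratio of C3 to CD59 within a library was 3.27, 3.28 and 3.35 under vector, against 1.64, 1.57 and 1.59 under shYB1. The ratio of CFI to CD59 was 1.40 ± 0.0505 (SD, n = 3) in vector and 0.619 ± 0.0202 (SD, n = 3) in shYB1 cells, so CFI moved from above the membrane regulator to below it. The ratio of CD46 to CD59 was 3.76, 3.81 and 3.59 under vector, against 3.90, 3.87 and 4.01 under shYB1. The ratio of C3 to CFI was 2.36 ± 0.112 in vector and 2.59 ± 0.0578 in shYB1 cells (SD, n = 3 each), a small shift beside those against CD59. These ratios are free of library scaling and show unequal change between the genes, not which of them changed.

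**Figure D2:**
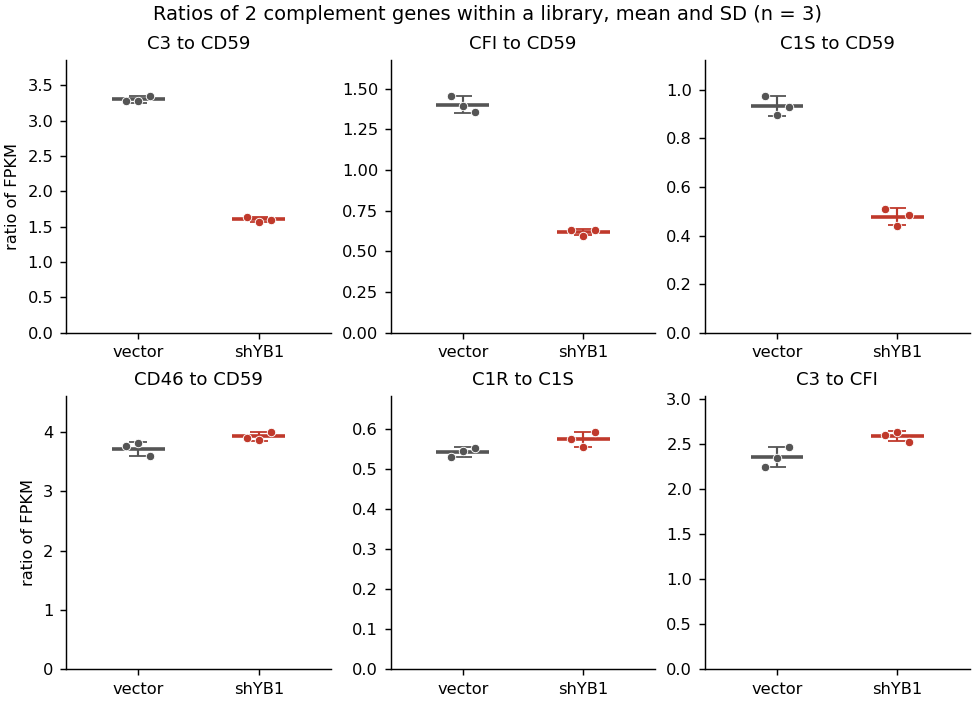
Ratios of FPKM of 2 complement genes within the same library (vertical axes, from 0), for 3 vector and 3 shYB1 libraries (points) with means and SD. The ratio of C3 to CD59 drops from 3.30 to 1.60, while that of C1R to C1S stays between 0.529 and 0.593.

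Other genes of the pathway were then taken from a list of 55 genes sorted by role. The list was written with earlier results of these data known, so its p-values are not independent of that choice. Only 7 of them had a mean of at least 1 FPKM, and 18 were listed at 0 in every library, among them C1QA, C1QB and C1QC, which encode the recognition subunit of C1. None of the 7 terminal pathway genes reached 1 FPKM, and the highest of these was C5, at 0.801 ± 0.114 FPKM under vector and 0.859 ± 0.0623 FPKM under shYB1 (SD, n = 3 each). Of the 7 genes tested, 4 were called lower, against 6.93% of all genes tested, and C1QBP was called higher, against 18.7%. After median-of-ratios rescaling 5 were called lower, now with CALR, against 12.2% of all genes tested, and C1QBP higher, against 11.2%. The median log2 fold change of the 7 was −0.29, against 0.055 over all genes tested.

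Of the genes called lower, C1RL, CLU and SUSD4 are described here. C1RL, a protease related to C1r and its neighbour on chromosome 12, fell from 16.9 ± 0.583 to 11.6 ± 0.268 FPKM (SD, n = 3 each; log2 fold change −0.54, SE 0.045, adjusted p = 3.49e-05 by limma), and shares 12.8% of its 50-base words with other genes, mostly with C1R. CLU, the gene of clusterin, which binds terminal complexes, fell from 61.9 ± 1.11 to 47.6 ± 1.49 FPKM (SD, n = 3 each; log2 fold change −0.38, SE 0.035, adjusted p = 7.31e-05 by limma). SUSD4, a membrane protein with complement control domains, fell from 5.51 ± 0.242 to 4.48 ± 0.137 FPKM (SD, n = 3 each; log2 fold change −0.29, SE 0.060, adjusted p = 0.00597 by limma). The groups did not overlap in any of these 3 genes. The list places SUSD4 among the membrane regulators, so not all of those tested stayed as close to their vector levels as CD46, CD55 and CD59.
C1QBP, a largely mitochondrial protein that can bind C1q, rose from 51.3 ± 0.996 to 66.2 ± 2.80 FPKM (SD, n = 3 each; log2 fold change 0.37, SE 0.038, adjusted p = 0.000130 by limma). MBL2, the mannose-binding lectin, had 1.36 ± 0.0918 and 1.31 ± 0.0711 FPKM (SD, n = 3 each), a log2 fold change of −0.048 (95% interval −0.26 to 0.17). CALR, an endoplasmic reticulum chaperone that also binds C1q, had 399 ± 19.5 and 379 ± 10.6 FPKM (SD, n = 3 each), a log2 fold change of −0.074 (95% interval −0.16 to 0.015).

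**Figure D3:**
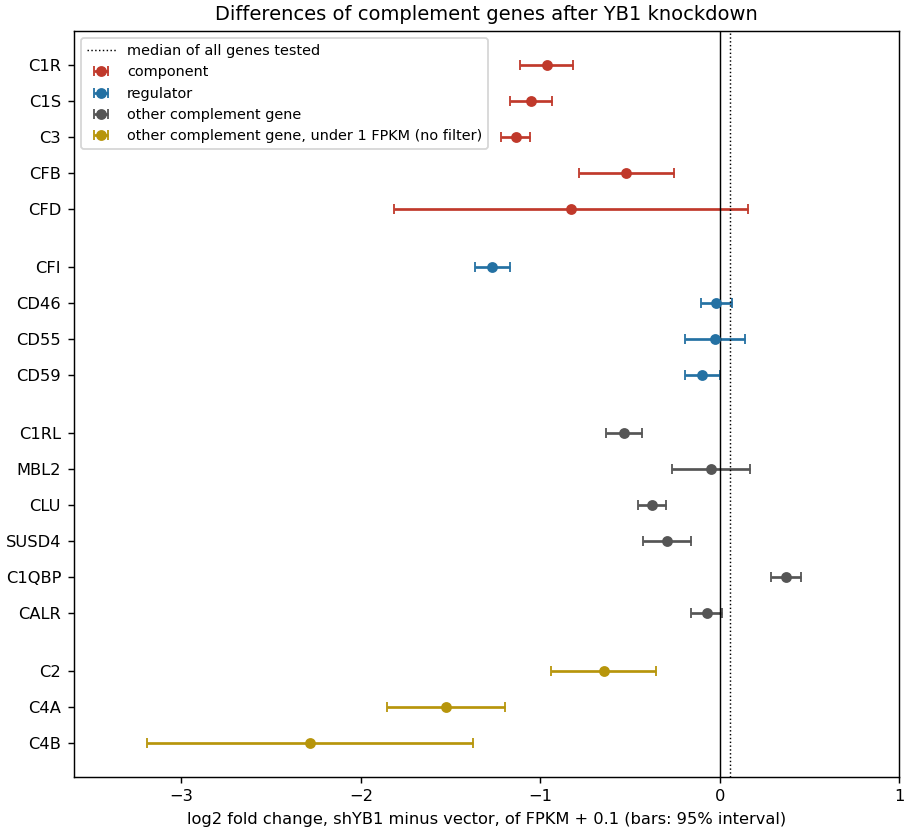
Log2 fold change, shYB1 minus vector, of FPKM + 0.1 (horizontal axis) with 95% intervals from limma, by group of genes, with a dotted line at the median of all genes tested (0.055). CFI, C3, C1S and C1R lie near −1, and CD46, CD55, CD59, MBL2 and CALR near 0.

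The substrates of C1s were too low for the filter but fell in the test without it. With no filter, 15988 genes were tested, of which 3.85% were called lower and 9.89% higher. Of the 55 genes, 37 were tested in this way. Of these, 7 were called lower, which added C4A, C4B and C2, and 2 were called higher, which added ITGB2. C4A measured 1.54, 1.43 and 1.24 FPKM under vector, against 0.483, 0.347 and 0.438 FPKM under shYB1 (log2 fold change −1.53, SE 0.14, adjusted p = 0.00111 by limma without the filter). C4B measured 0.451, 1.34 and 1.24 FPKM under vector, against 0.0547, 0.136 and 0.152 FPKM under shYB1 (log2 fold change −2.28, SE 0.39, adjusted p = 0.0105 by the same test). These genes are near copies, with 94.1% of the 50-base words of C4A found in C4B, so how reads were split between them is uncertain. Vector replicate 1 was the lowest of its group for C4B and the highest for C4A. Their summed FPKM came to 1.99, 2.77 and 2.47 under vector, against 0.538, 0.483 and 0.590 under shYB1, 22.3% of the vector mean and without overlap. C2 fell from 0.695 ± 0.0723 to 0.407 ± 0.0342 FPKM (SD, n = 3 each; log2 fold change −0.65, SE 0.12, adjusted p = 0.0169 by the same test). Of its words 30.4% are shared with other genes, and 29.7% with the same read-through gene that shares words with CFB. Whether reads of C2 and CFB were kept apart is therefore uncertain. ITGB2, the beta chain of the C3 fragment receptors CR3 and CR4, rose from 0.474 ± 0.0409 to 0.779 ± 0.123 FPKM (SD, n = 3 each; log2 fold change 0.61, SE 0.14, adjusted p = 0.0272 by the same test). Its partner chains ITGAM and ITGAX had means of 0.0144 and 0.0535 FPKM over the 6 libraries. The leukocyte marker CSF1R was also higher in shYB1 cells, and its part in the result was not tested.

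**Figure D4:**
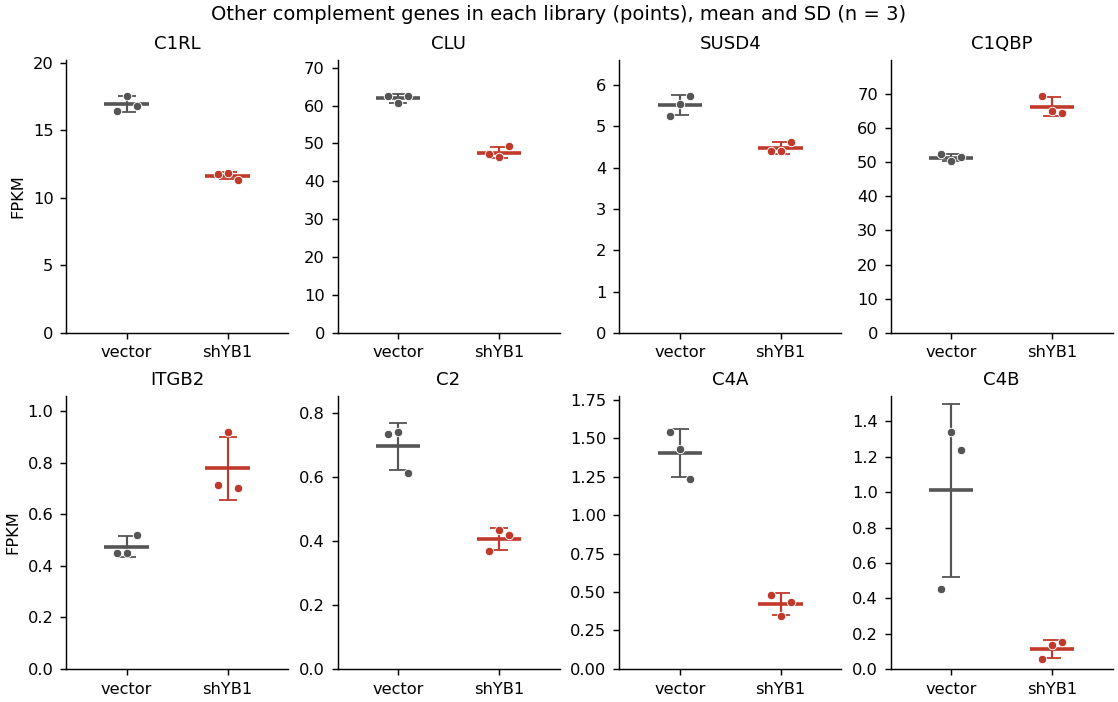
FPKM (vertical axes, from 0, scaled separately) of 8 other complement genes in 3 vector and 3 shYB1 libraries (points), with means and SD. All but C1QBP and ITGB2 are lower in shYB1 cells, and the 2 C4 genes lie under 2 FPKM throughout.

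All 9 genes belong to the KEGG pathway of complement and coagulation cascades in the deposited annotation, which lists 70 others. Of the 18 of these that averaged 1 FPKM or more, 8 were called lower and 4 higher by limma. Over all genes tested, 6.93% were called lower and 18.7% higher. The median log2 fold change of the 18 was −0.15, against 0.055 over all genes tested. Without shYB1 replicate 2, 2 of the 18 were called higher. FGG, FGB, BDKRB2 and BDKRB1 had the largest differences among the called genes, all lower. The fibrinogen chain gene FGB fell from 1.79 ± 0.297 to 0.746 ± 0.0839 FPKM (SD, n = 3 each), a log2 fold change of −1.16 (SE 0.13, adjusted p = 0.000224 by limma), while FGG, another fibrinogen chain, fell by 1.42 on the log2 scale (adjusted p = 2.20e-06 by limma). The bradykinin receptor genes BDKRB2 and BDKRB1 had log2 fold changes of −1.10 and −1.10 (adjusted p = 2.59e-06 and 0.0158 by limma). FGB and BDKRB1, at shYB1 means of 0.746 and 0.948 FPKM, reached the minimum of 1 FPKM through their vector values, and with a pseudocount of 1 their log2 fold changes were −0.67 and −0.68. BDKRB1 was not called without vector replicate 1 or without vector replicate 3 (adjusted p = 0.0540 and 0.0589 by limma).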

How the data were processed

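The authors deposited FPKM per gene for 3 vector and 3 shYB1 libraries. The submitters' processing notes name Trimmomatic, HISAT2, Cufflinks, HTSeq and DESeq and the build GRCh38, without versions or roles, and strandedness is not given in the sources used here, so reads of a gene and of a gene overlapping it on the opposite strand (as at C1S, C1RL, C2, C4A, C4B, C1QBP and CALR) cannot be told apart. Control columns were taken as the vector libraries of the same replicate number, and 0 columns of per-library values were left out.

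A pseudocount of 0.1 was added before log2, which understates changes of low genes, and the 10439 genes whose mean over all 6 libraries reached 1 FPKM were tested by limma 3.58.1 under R 4.3.3 (trend, robust; two-sided), adjusting p over all of them by Benjamini-Hochberg. No replicate block was used. The fit was tested on simulated data. Python 3.11.15, pandas 2.3.3, SciPy 1.17.1 and matplotlib 3.10.9 did the remaining steps. Coordinates and shared 50-base words come from GENCODE 29 (GRCh38), and promoter windows from RefSeq.

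The 9 complement genes and the gene lists were chosen with earlier results of these data known. Named genes were these 9, YBX1, every gene of the list of 55 other complement genes that was called or had a mean of at least 1 FPKM, and the 5 most changed called KEGG genes. ITGB2, C4A, C4B and C2 were called only without the filter, and C5, ITGAM, ITGAX, SERPING1, THBD, C3AR1, C4BPA and the C1Q genes were named after their values were seen. Results for some genes covered by these rules are not reported here. Alternatives were other pseudocounts, filters, scalings, a prior without trend, a replicate block and each library left out.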

Additional observations from a re-analysis of the deposited data

How the results depend on the processing

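Under 15 alternatives, C3, C1R, C1S and CFI kept their direction and their call, as did CFB in the 14 that tested it, and the number of the 9 genes called lower stayed between 4 and 6. All of these reuse the comparison that was known when the 9 genes were chosen, so they show only the dependence on processing. CFB passed the minimum of 1 FPKM through its vector values. Median-of-ratios scaling and quantile normalization changed the genes called over the whole table from 723 lower and 1956 higher to 1273 and 1171, and to 1184 and 1267. Without the filter 7 of the 37 genes tested from the list of 55 were lower and 2 higher. With a minimum of 5 FPKM 4 of the other KEGG genes were lower. With each library left out, between 2 and 4 of the other KEGG genes were higher. CD46 and CD55, never called, changed sign without vector replicate 2 (log2 fold change 0.012) and without shYB1 replicate 3 (0.0585); with each library left out they ranged from −0.0447 to 0.0122 and from −0.0784 to 0.0585. BDKRB1 was not called without vector replicate 1 or 3, and CALR was called lower with median-of-ratios scaling (log2 fold change −0.13) and with scaling to a common total (−0.079). The causes were not tested. With the replicate number as a block, 760 genes were lower and 2074 higher, and 5 of the 9 genes, 4 of the other complement genes and 8 of the other KEGG genes were lower. Correlations of deviations between libraries of the same number were −0.169 to −0.00824, which showed no pairing by number. With 3 libraries in each group they cannot exclude it. The block changed the call of none of the complement genes tested or the KEGG genes named. The table holds no counts, so precision at low FPKM is known only from the replicates.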

Other observations

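Among the regulators and receptors of complement under 1 FPKM that were not called, 4 chosen after their values were seen are given here, and their directions differed. SERPING1, the gene of the C1 inhibitor, which blocks C1r and C1s, was measured at 0.225, 0.164 and 0.358 FPKM under vector, against 0.778, 0.385 and 0.481 FPKM under shYB1. The groups did not overlap, but the difference was not called without the filter (log2 fold change 0.88, SE 0.28, adjusted p = 0.0812 by limma). THBD, the gene of thrombomodulin, had 0.486 ± 0.183 FPKM under vector and 0.776 ± 0.201 FPKM under shYB1 (SD, n = 3 each), with overlapping groups (adjusted p = 0.173 by the same test). C4BPA, a chain of the C4b-binding protein, measured 0.286, 0.236 and 0.0893 FPKM under vector, against 0.0701, 0.0333 and 0.106 FPKM under shYB1, with overlapping groups (log2 fold change −0.80, SE 0.29, adjusted p = 0.118 by the same test). C3AR1, the receptor of the C3a fragment, had 0.380 ± 0.136 and 0.407 ± 0.165 FPKM (SD, n = 3 each), also overlapping (adjusted p = 0.902 by the same test).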
